A study of Mus musculus with 3 samples.

Results

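Krüppel-like factors (Klf) are zinc finger transcription factors, and 8 of their genes, Klf2, Klf3, Klf4, Klf6, Klf7, Klf9, Klf10 and Klf13, were followed here among the 15338 genes of 3 single-cell libraries of mouse brain microglia. The genes were taken by name, with earlier results of these data known, and each had a row in every library. The hCD33m library came from 8-week-old female mice carrying a transgene for human CD33 in its short isoform. CD33 is an inhibitory Siglec receptor found on myeloid cells. The hCD33M library came from 8-week-old male mice carrying the long isoform, and the Control library from 8-week-old male wild-type mice. Each transgene sat in the Rosa26 locus behind a floxed stop and was turned on by Cx3cr1-Cre, in which the fractalkine receptor gene of microglia drives the recombinase. The hCD33m line derived from a single clone of embryonic stem cells. Neither the Cre status of the sequenced Control mice nor any pooling of animals in this second experiment of the study is given in the sources used here. The sort took CD11b+ CD45low Cx3cr1+ cells. With 1 library per genotype no difference between genotypes was tested, the hCD33m genotype and female sex cannot be told apart, and all intervals between libraries are 95% intervals for counting error only, narrower than they should be because unique molecular identifiers (UMIs) of 1 cell are not independent.

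Krüppel-like factors share a carboxy-terminal block of zinc fingers that binds GC-rich and CACCC sequences, and they differ in the amino-terminal part that recruits cofactors. Klf2, Klf4, Klf6 and Klf7 mostly activate transcription, Klf3 represses it through CtBP proteins, and Klf9, Klf10 and Klf13 bind the Sin3A corepressor. In endothelium and leukocytes, Klf2 and Klf4 lie downstream of the MEK5-ERK5-MEF2 kinase pathway and restrain inflammatory genes, while Klf6 favours inflammatory genes in macrophages.

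The libraries held 32572995, 28387611 and 21529542 UMIs in the hCD33m, hCD33M and Control files, and 5612, 5046 and 3412 cells were kept with a median of 5078.5 to 5436.5 UMIs. Clusters were named from marker genes, with all Klf genes kept out of the clustering. Microglia-like cells numbered 4939, 4599 and 3050 in the hCD33m, hCD33M and Control libraries. All 10 microglial markers were detected in them. Macrophages of the brain's borders (BAM), marked by Mrc1 and Pf4, numbered 127, 102 and 83, and monocyte-like cells numbered 28, 23 and 19. A further 518, 322 and 260 cells lay in shallow clusters that were not named. In all, 25 cell barcodes occurred in 2 or more libraries, and leaving their cells out changed none of the calls below. Summed levels are given as CPM, the UMIs of a gene scaled to all UMIs of the cells of a class. The assay reads transcript ends, so CPM is not divided by length.

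In the GENCODE vM21 annotation of GRCm38 the gene Klf2 spans chr8:72319033-72321656 on the plus strand and Klf4 spans chr4:55527143-55532466 on the minus strand, and the other members lie on chromosomes 5 (Klf3), 13 (Klf6), 1 (Klf7), 19 (Klf9), 15 (Klf10) and 7 (Klf13). The promoters of Klf2 and Klf4 are shown because these were the members whose levels were more than 1.5-fold apart between libraries. They run from 250 bases before to 50 bases after the RefSeq start on GRCm38.p6, 5′ to 3′ on the strand of the gene. Klf2 lies on the plus strand (chr8:72318812-72319111) and Klf4 on the minus strand (chr4:55532426-55532725). Capitals mark matches on either strand to 4 motifs. The CACCC box was searched as CCACCC and, for its longer form, as CACACCC, and such boxes are bound by Klf proteins themselves. The GC box was searched as GGGCGG, which Sp proteins bind too. The core of the cAMP response element was searched as TGACG, and the MEF2 site by its consensus.
Klf2: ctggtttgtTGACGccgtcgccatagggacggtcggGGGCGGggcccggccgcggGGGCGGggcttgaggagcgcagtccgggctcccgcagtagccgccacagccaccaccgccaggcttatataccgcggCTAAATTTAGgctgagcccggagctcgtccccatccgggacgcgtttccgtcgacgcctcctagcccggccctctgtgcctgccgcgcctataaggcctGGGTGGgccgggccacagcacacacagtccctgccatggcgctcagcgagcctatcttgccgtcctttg
Klf4: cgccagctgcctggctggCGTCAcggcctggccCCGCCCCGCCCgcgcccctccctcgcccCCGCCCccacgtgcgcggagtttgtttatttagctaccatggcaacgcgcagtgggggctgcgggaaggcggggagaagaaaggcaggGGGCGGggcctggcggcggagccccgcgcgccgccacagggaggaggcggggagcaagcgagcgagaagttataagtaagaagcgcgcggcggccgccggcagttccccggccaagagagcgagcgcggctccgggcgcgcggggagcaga

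The Klf2 promoter held a cAMP response element core at -241 to -237 from the start, GC boxes at -214 to -209 and -195 to -190, and a CACCC box on the minus strand at -19 to -14. It also held a MEF2 site at -118 to -109, the motif of the factors through which ERK5 acts. Among the 7 members matched in the RefSeq promoter table, a MEF2 site was found in Klf2 alone, and 1.86% of all 32851 promoters of the same length held one. The Klf4 promoter held such a core on the minus strand at -232 to -228 and GC boxes at -217 to -212, -212 to -207, -189 to -184 and -101 to -96. GC boxes occurred in 35.7%, CACCC boxes in 36.5% and the core in 20.8% of all promoters. Neither promoter held an exact match to an AP-1 site (TGANTCA, in 7.81% of all promoters), a glucocorticoid response element core (AGAACA, 19.0%), a TATA box (TATAAA, 13.6%) or a CArG box (1.63%). Looser forms were not searched, and both promoters hold TATAAG, which differs from TATAAA in the last base. Guanine and cytosine made up 69.3% of the Klf2 and 74.3% of the Klf4 promoter, against a median of 52.7% over all promoters. A match of letters is a description and does not show that a factor binds there.

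Klf2 and Klf4, the pair known for holding endothelial cells and leukocytes in a quiescent state, were higher in hCD33m microglia-like cells than in the other 2 libraries, and the remaining 6 members were within 1.5-fold in each pair of libraries. Klf2 had 72.5 CPM in hCD33m, 36.5 CPM in hCD33M and 33.2 CPM in Control, from 2142, 970 and 640 UMIs. The hCD33m level stood apart and the other levels were close together. The log2 ratio of hCD33m over Control was 1.13 (0.998 to 1.26), a 2.18-fold difference, and that of hCD33m over hCD33M was 0.99 (0.88 to 1.10). For hCD33M over Control the log2 ratio of 0.14 (-0.01 to 0.29) took in 0. Klf4 had 49.97 CPM in hCD33m, 15.2 CPM in hCD33M and 19.4 CPM in Control. Here hCD33m was highest and hCD33M lowest. The log2 ratio of Klf4 was 1.36 (1.20 to 1.53) for hCD33m over Control, 2.57-fold, and 1.71 (1.56 to 1.88) for hCD33m over hCD33M. For hCD33M over Control it was -0.35 (-0.56 to -0.15), a difference that shrank to -0.10 (-0.48 to 0.28) when each cell was thinned to 2000 UMIs.

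Of 7 members that reached 5 CPM in the library where they were higher, 2 were at least 1.5-fold higher in hCD33m than in Control and 0 were lower, against 1.1% higher and 1.32% lower of 9755 genes. For hCD33m over hCD33M the same 2 were higher and 0 lower, against 0.729% higher and 1.06% lower of 9736 genes. For hCD33M over Control the members gave 0 in either direction, against 0.75% higher and 0.452% lower of 9738 genes. The first 2 of these comparisons share the hCD33m library. Klf2 exceeded 99.8% of genes in its log2 ratio of hCD33m over Control, and Klf4 exceeded 99.9%. Both were already known to be higher in hCD33m from an earlier reading of these files, so the counts are a description.

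**Figure D1:**
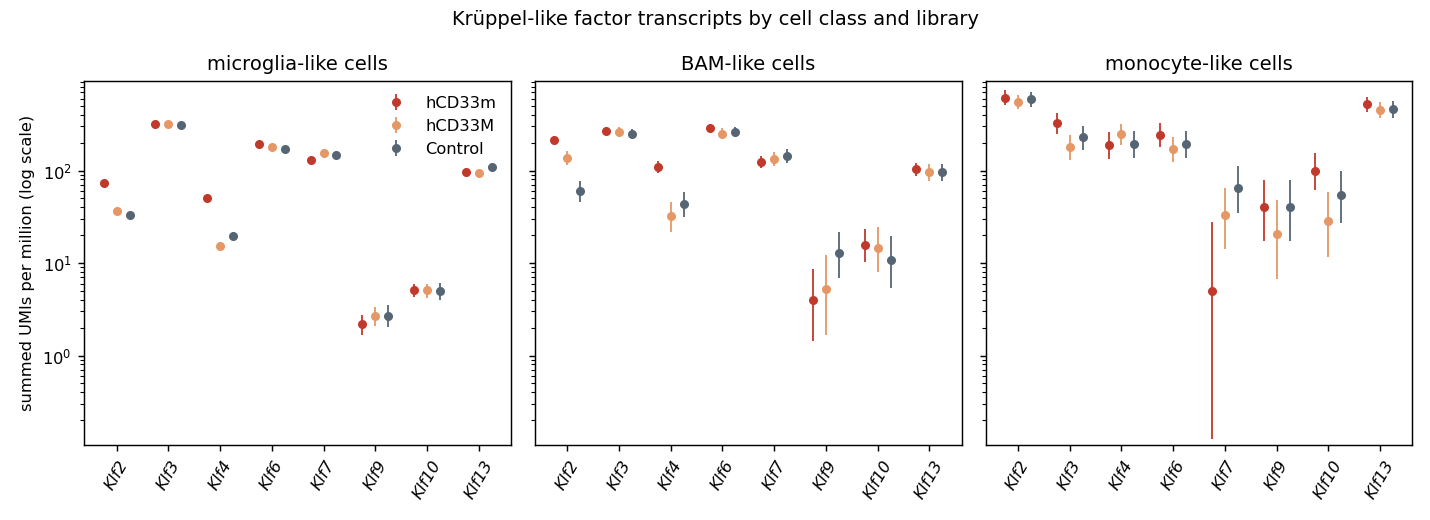
Levels of the 8 factors in CPM on a log scale, in microglia-like, BAM-like and monocyte-like cells of the hCD33m, hCD33M and Control libraries; points are summed levels and lines 95% counting intervals. Klf2 at 72.5 and Klf4 at 49.97 CPM in hCD33m microglia-like cells lie above the other libraries, while Klf3 lies between 313 and 321 CPM in all of them.

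Klf6, an activator induced early in macrophages, and Klf7, an activator best known from neurons, differed little between libraries in microglia-like cells. Klf6 had 194, 178 and 169 CPM in hCD33m, hCD33M and Control. Its log2 ratio was 0.20 (0.14 to 0.26) for hCD33m over Control and 0.08 (0.01 to 0.14) for hCD33M over Control. The order of the Klf6 levels was therefore that of Klf2, at a much smaller difference. Klf7 had 129, 153 and 146 CPM. It was lowest in hCD33m, at a log2 ratio of -0.17 (-0.24 to -0.10) over Control and -0.24 (-0.30 to -0.17) over hCD33M, the direction opposite to Klf2 and Klf4.

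Klf3, the CtBP-binding repressor, had the most UMIs of the members and stood at 320.3 CPM in hCD33m, 321 CPM in hCD33M and 313 CPM in Control. Its log2 ratio over Control was 0.03 (-0.01 to 0.08) for hCD33m and 0.04 (-0.01 to 0.08) for hCD33M, so any difference lay within a few percent. Klf13, a Sin3A-binding factor that in T lymphocytes activates the chemokine gene Ccl5, had 96.2 CPM in hCD33m, 94.8 CPM in hCD33M and 110.4 CPM in Control. Both transgenic libraries lay below Control, at log2 ratios of -0.20 (-0.28 to -0.12) for hCD33m and -0.22 (-0.30 to -0.14) for hCD33M. Klf10, first found as a gene induced by TGF-beta, had 5.11, 5.05 and 4.98 CPM, and Klf9, a target of glucocorticoid and thyroid hormone receptors, had 2.17, 2.68 and 2.70 CPM. With 64, 71 and 52 UMIs of Klf9 and 151, 134 and 96 UMIs of Klf10 in hCD33m, hCD33M and Control, a difference was not detectable at this depth.

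**Figure D2:**
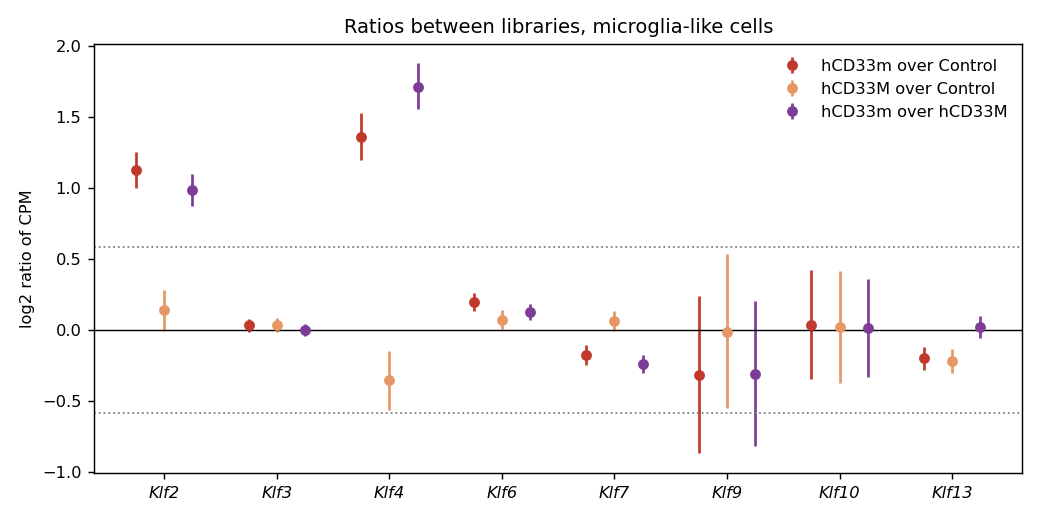
Log2 ratios of CPM in microglia-like cells for the 8 factors, for hCD33m over Control, hCD33M over Control and hCD33m over hCD33M, with 95% counting intervals; dotted lines mark 1.5-fold. Klf2 (1.13) and Klf4 (1.36) pass the upper line for hCD33m over Control, and Klf7 (-0.17) and Klf13 (-0.20) lie below 0.

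Genes that act upstream of these factors or with them were close to equal between the libraries. Of 7 measured genes of the MEK5-ERK5-MEF2 pathway, which induces Klf2 in endothelium, 0 were 1.5-fold apart between any 2 libraries, and the median log2 ratio of hCD33m over Control was 0.01, against -0.00 over all genes. Mef2c, which had the most UMIs of them, stood at 1245 CPM in hCD33m, 1279 CPM in hCD33M and 1241 CPM in Control. Of 15 cofactors and ubiquitin ligases of the factors, 0 were 1.5-fold apart in any pair, at a median of 0.09 for hCD33m over Control. The ligase Itch had the log2 ratio farthest from 0 among those of at least 20 CPM, 0.26 (0.20 to 0.32). Of 6 further Klf and Sp genes with at least 5 CPM, 0 were 1.5-fold apart, and Klf12 had 18.6 CPM in hCD33m, 26.3 CPM in hCD33M and 24.7 CPM in Control. Few genes were that far apart at all, since only 1.1% of all genes were higher and 1.32% lower in hCD33m than in Control.

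Genes known as targets of Klf2 or Klf4 in endothelium, lymphocytes or macrophages did not share a direction. The list mixes genes that these factors activate with inflammatory genes that they restrain, such as Il1b and Tnf. Its counts and median therefore do not measure a response of the targets. For hCD33m over Control, 2 of 8 measured targets were at least 1.5-fold higher, 1 was lower and the median log2 ratio was 0.01. Over all genes, 1.1% were that much higher and 1.32% lower. Cdkn1a, the cell cycle inhibitor p21, had 25.5 CPM in hCD33m, 19.6 CPM in hCD33M and 14.0 CPM in Control, with log2 ratios over Control of 0.87 (0.66 to 1.07) in hCD33m and 0.48 (0.27 to 0.70) in hCD33M. S1pr1, the sphingosine phosphate receptor that Klf2 activates in T lymphocytes, went the other way, with 43.7 CPM in hCD33m, 51.5 CPM in hCD33M and 62.4 CPM in Control and a log2 ratio of hCD33m over Control of -0.52 (-0.63 to -0.40). The cytokine genes Il1b and Tnf were the other targets past 1.5-fold. Il1b had 5.11 CPM in hCD33m, 5.43 CPM in hCD33M and 3.11 CPM in Control, so that hCD33M was also past 1.5-fold over Control (log2 ratio 0.80, 0.36 to 1.26), and was the only one of the 8 targets to be so. Tnf had 4.87 CPM in hCD33m, 12.2 CPM in hCD33M and 10.9 CPM in Control. Thbd, a target of Klf2 in endothelium, had 0 UMIs in hCD33m and Control microglia-like cells, which allows at most 0.101 CPM in hCD33m and 0.156 CPM in Control (3 UMIs in the library).

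Genes past 1.5-fold on the early response and glucocorticoid lists were more often higher than lower in hCD33m. For hCD33m over Control, 5 of 21 measured early response genes were at least 1.5-fold higher and 2 lower, with a median log2 ratio of 0.41. Of all genes in that pair, 1.1% were that much higher and 1.32% lower. Fos, a subunit of AP-1, had 208 CPM in hCD33m, 63.4 CPM in hCD33M and 87.9 CPM in Control, an order that Klf4 shared. Dusp1, a phosphatase of MAP kinases, had 68.6, 18.7 and 24.0 CPM. Of 10 genes of the glucocorticoid list, which also holds Dusp1, 5 were higher and 0 lower in hCD33m than in Control, with a median of 0.61. Ddit4, an inhibitor of mTORC1, had 79.9 CPM in hCD33m, 8.89 CPM in hCD33M and 9.28 CPM in Control, and Tsc22d3, which encodes the glucocorticoid-induced leucine zipper, had 126 CPM, 33.4 CPM and 33.6 CPM. For hCD33m over hCD33M the early response list gave 10 higher and 2 lower, with a median of 0.55, and the glucocorticoid list 5 higher and 0 lower, with a median of 0.50. The shares of all genes there were 0.729% higher and 1.06% lower. For hCD33M over Control both lists gave 0 in either direction, at medians of -0.13 and -0.04, where 0.75% of all genes were higher and 0.452% lower. Lists for TGF-beta and heat shock gave medians of 0.06 and 0.28 for hCD33m over Control, with 0 of 10 and 1 of 6 genes past 1.5-fold. The study's methods name actinomycin D and triptolide in the perfusion and its results cold saline. The study also probed brain sections in situ. It reported a significantly higher density of Fos-positive microglia in hCD33m than in wild-type mice, and only a trend for Klf2. For its first sequencing experiment the study describes male mice of each genotype. There, Klf2 was reported significantly higher in hCD33m microglia than in both other genotypes, and the Fos network was linked to those of Klf2 and Klf4. The study also reported the genes of its hCD33m-rich cluster, Klf2 among them, as raised in the second experiment. In the counts used here, the part of cell isolation, of sex and of hormone state in the levels of Klf2 and Klf4 was not tested.

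The ratios of Klf2 and Klf4 were also taken over cells with no UMI of 3 AP-1 genes, although a count of 0 at this depth does not show that a cell lacked these transcripts. In the 719, 1243 and 753 microglia-like cells of hCD33m, hCD33M and Control in which no UMI of Fos, Fosb or Jun was seen at 2000 UMIs, the log2 ratio of hCD33m over Control was 1.38 (0.98 to 1.79) for Klf2 and 1.87 (1.24 to 2.55) for Klf4. Markers of other cell types were given by the same sums, and their part in the Klf2 and Klf4 levels was not tested beyond this. The 12 BAM markers summed to 307, 254 and 259 CPM in microglia-like cells of hCD33m, hCD33M and Control, with Lyve1 at 0 in hCD33M and Control, and the 11 monocyte markers to 88.7, 86.4 and 75.5 CPM. Endothelial markers, of interest because Klf2 and Klf4 are high in endothelium, summed to 39.1, 35.3 and 32.1 CPM. The sum covers Pecam1, Flt1, Cdh5 and Pltp, the 4 of 6 that had a row among the genes analysed here. All 4 were detected in every library, whereas Cldn5 and Ly6c1 had no row.

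Klf2 and Klf4 were seen in fewer cells than an even spread of their UMIs would give. When each microglia-like cell was thinned to 2000 UMIs, which left out 96, 87 and 64 shallower cells of hCD33m, hCD33M and Control, Klf2 was seen in 9.97% (9.14 to 10.9), 5.81% (5.14 to 6.53) and 4.79% (4.05 to 5.62) of cells, with exact (Clopper-Pearson) intervals. Without thinning the shares were 19.8%, 11.35% and 10.98%, at median depths of 5259, 5166 and 5532 UMIs. Klf4 was seen in 6.90% (6.20 to 7.65), 2.53% (2.09 to 3.03) and 2.85% (2.28 to 3.51) of thinned cells, and in 14.9%, 5.52% and 7.44% without thinning. The shares put hCD33m above both other libraries, as the summed levels did. No class in these libraries is known to lack the factors, so no background share from free RNA could be set beside them. Had every cell held the same mean level, Klf2 would have been seen in 14.4% of thinned hCD33m cells, and the observed share was 0.694 of that in hCD33m, 0.782 in hCD33M and 0.761 in Control. For Klf4 the same ratios were 0.763, 0.816 and 0.856, and for the remaining 6 members they ranged between 0.907 and 1.002.

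Klf3, Klf6, Klf7 and Klf13 were seen in larger shares of cells. At 2000 UMIs Klf3 was seen in 46.5%, 46.8% and 44.7% of hCD33m, hCD33M and Control microglia-like cells, and Klf6 in 29.8%, 29.9% and 28.7%. Klf7 was seen in 21.4%, 24.5% and 25.5%, and Klf13 in 16.3%, 17.2% and 19.1%. Klf9 and Klf10 were seen in at most 1.24% of cells of any library. The mean number of members per cell was 1.32, 1.28 and 1.27, and 21.8%, 20.8% and 21.9% of cells showed no member.

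Klf2 and Klf4 were found in the same cells more often than their separate shares would give. At 2000 UMIs both were seen in 72 hCD33m cells, 12 hCD33M cells and 17 Control cells. The product of their shares would have given 33.3, 6.62 and 4.07 cells, so the ratios were 2.16 (1.69 to 2.72), 1.81 (0.937 to 3.17) and 4.18 (2.43 to 6.69), and only the hCD33M interval took in 1. Klf2 was seen in 21.6% of cells with Klf4 and 9.12% of cells without it in hCD33m, in 10.5% and 5.68% in hCD33M, and in 20% and 4.34% in Control. Of all 28 pairs of members, 15 had a product of at least 10 cells in every library, and their ratios ranged between 0.597 and 1.35. Only 3 of these 15 pairs were above 1 in every library, namely Klf2 with Klf6 (1.09 to 1.29), Klf6 with Klf13 (1.03 to 1.10) and Klf3 with Klf7 (1.001 to 1.04). Klf2 with Klf4 was not among the 15, since its product was under 10 cells in hCD33M and Control. Sparser pairs spread more widely, such as Klf4 with Klf10 (0 to 3.51) and Klf9 with Klf10 (0 to 6.45). Relations across cells of 1 library are descriptions, since the cells share a library and a depth.

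Cells with Fos were more often cells with Klf4. Klf4 was seen in 13.5% of cells with a Fos UMI and 4.88% of cells without one in hCD33m, in 7.95% and 1.94% in hCD33M, and in 8.19% and 2.13% in Control. The ratio of cells with both to the product of shares was 1.96 (1.66 to 2.29), 3.15 (2.19 to 4.38) and 2.88 (1.93 to 4.13). For Klf2 with Fos it was 1.67 (1.44 to 1.93), 1.21 (0.824 to 1.72) and 2.12 (1.49 to 2.94), so that the hCD33M interval took in 1. Klf2 was seen in 18.4% of cells with a Dusp1 UMI and 8.97% without one in hCD33m, in 15.9% and 5.44% in hCD33M, and in 10.2% and 4.57% in Control. Klf6 with Fos gave 1.08, 1.04 and 1.17, Klf3 with Fos 1.04, 1.0002 and 0.948, Klf7 with Fos 0.9995, 0.946 and 0.720, and Klf13 with Fos 0.996, 1.14 and 0.975. Among cells in which no Fos UMI was seen, hCD33m had the highest share of cells with Klf4, 4.88% against 1.94% in hCD33M and 2.13% in Control.

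**Figure D3:**
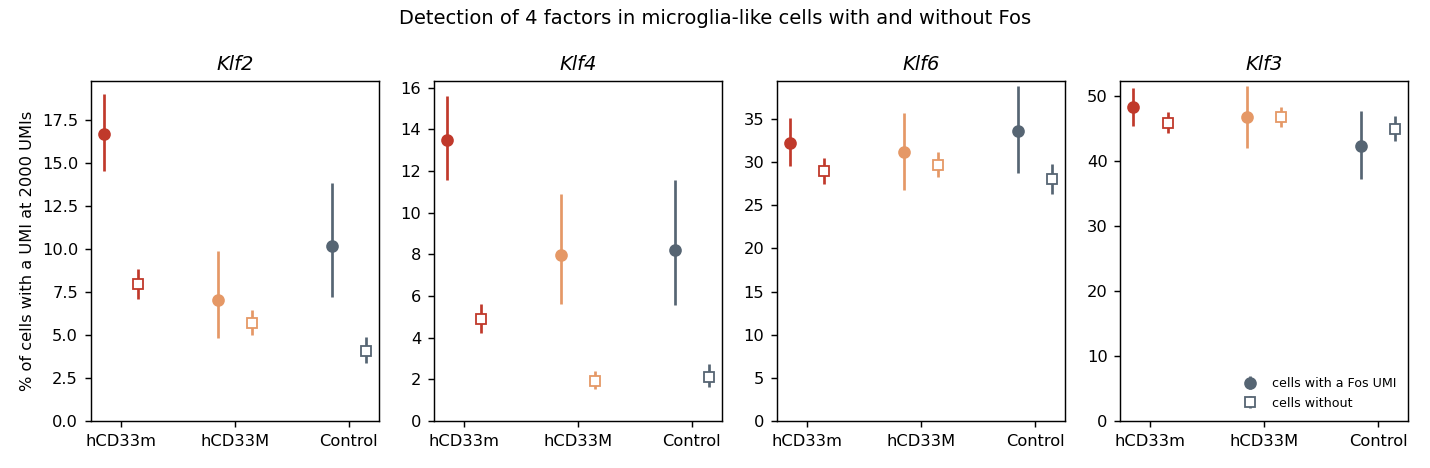
Percentage of microglia-like cells with a UMI of Klf2, Klf4, Klf6 or Klf3 at 2000 UMIs per cell, in cells with (filled circles) and without (open squares) a Fos UMI, for the hCD33m, hCD33M and Control libraries; lines are exact 95% intervals. Klf4 is seen in 13.5% of hCD33m cells with Fos and in 4.88% without, while Klf3 differs little.

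Within microglia-like cells the members varied by finer cluster. At a clustering resolution of 1.0, 11 microglia-like clusters held at least 30 cells of each library. Klf2 was higher in hCD33m than in Control in 10 of the 11 and higher than in hCD33M in 11 of 11, and Klf4 gave the same counts. The exception for both was cluster 10, led by the interferon-induced genes Cxcl10 and Ifit3, with 73.3 and 82.6 CPM of Klf2 in hCD33m and Control and 34.3 and 39.2 CPM of Klf4. Klf6 was higher in hCD33m than in Control in 11 of 11 clusters, and Klf7 in 1 of 11. Some of these clusters were led by sex-linked genes, such as Xist and Tsix in cluster 1, with 984, 111 and 93 cells of hCD33m, hCD33M and Control, and Ddx3y in cluster 3, so the libraries were unevenly spread over them.

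Cluster 7, led by Klf2 itself and by Emp3, Lpl, Tnfsf13b and Lsp1, had the highest Klf2 level of every library, at 196 CPM in hCD33m, 122 CPM in hCD33M and 97.9 CPM in Control. It held 606, 594 and 263 cells, and its Klf6 level was the highest of every library too, at 257, 238 and 226 CPM. Klf4 in that cluster was at 62.5, 19.1 and 31.8 CPM, and its highest level lay in another cluster in every library. In hCD33m that highest level, 63.5 CPM in cluster 5 (56.8 to 70.8), was not set apart from cluster 7 by counting error. In cluster 3 the Klf2 level was 26.1, 13.5 and 17.9 CPM while Klf4 was at 53.9 CPM in hCD33m, 9.51 CPM in hCD33M and 9.97 CPM in Control. Over the 11 clusters Klf4 ranged between 27.9 and 63.5 CPM in hCD33m, 9.51 and 23.5 CPM in hCD33M and 9.97 and 39.2 CPM in Control, while Klf2 ranged between 26.1 and 196 CPM in hCD33m, 7.39 and 122 CPM in hCD33M and 9.12 and 97.9 CPM in Control. Klf10 peaked in cluster 11, with the chemokine genes Ccl4 and Ccl3 leading, in hCD33m (20.9 CPM) and hCD33M (10.7 CPM), against 8.66 CPM there in Control. Klf3 was lowest in that cluster in all 3 libraries.

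**Figure D4:**
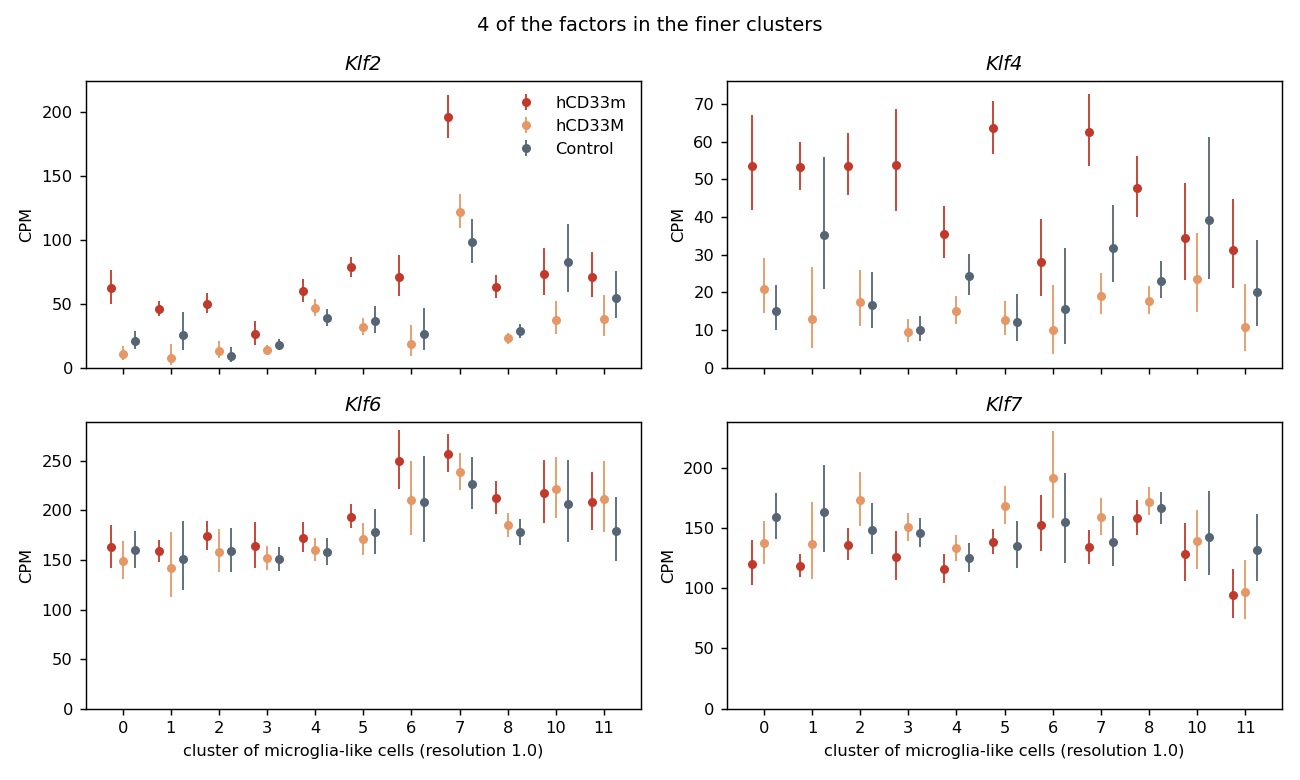
CPM of Klf2, Klf4, Klf6 and Klf7 in the 11 finer microglia-like clusters with at least 30 cells in each library, for hCD33m, hCD33M and Control with 95% counting intervals. Klf2 is highest in cluster 7 in every library (196, 122 and 97.9 CPM), and Klf4 in hCD33m lies above hCD33M in all 11 clusters.

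Over 17 sums of a library and a cluster, 14 of them microglia-like, the gene whose log2 level followed Klf4 most closely among 6641 genes was Fos (Pearson r = 0.905, and 0.970 over the microglia-like sums), followed by Dusp1 (0.885) and Mrpl28 (0.864). Klf2 was followed most closely by Selenow (0.903), Slfn2 (0.894) and Map3k8 (0.884), and Klf6 by Rbms1 (0.937), Axl (0.901) and Cd72 (0.899). Klf3 was closest to Pdzd8 (0.965), Elmo1 (0.956) and Slc25a37 (0.951), and Klf7 to Arid3a (0.896), Dusp7 (0.892) and Cd2ap (0.872). Klf10 was closest to Ddx60 (0.962), Myo5a (0.953) and Neat1 (0.951). For Klf9 and Klf13 no gene exceeded 0.789 (Serpinb6a) and 0.760 (Ginm1). Between members r was 0.832 for Klf2 with Klf6, 0.742 for Klf2 with Klf4 and -0.597 for Klf2 with Klf7. These sums share libraries and depth, so the values describe likeness only.

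The 3 cell classes could be compared with a test, since each library held all of them. UMIs were summed per library and class and fitted with edgeR's quasi-likelihood test, with the library as a block. The block took out only a shift between libraries that all classes of a library shared. The p-values rested on a spread over 3 libraries that was estimated from all 3 classes together and drawn toward that of other genes. They do not measure the spread of 1 gene in 1 comparison alone. The classes were drawn from other genes of the same cells. Against BAM-like cells, 5 members were lower in microglia-like cells and 0 higher, where 13.4% of 9123 genes were lower and 8.8% higher. Against monocyte-like cells, 6 members were lower and 1 higher, where 21.9% of genes were lower and 20.7% higher.

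Klf2 was lower in microglia-like cells in both comparisons. BAM-like cells had 214 CPM of Klf2 in hCD33m, 138 CPM in hCD33M and 60.1 CPM in Control, and monocyte-like cells had 614, 553 and 593 CPM. Within each library Klf2 increased in the order microglia-like, BAM-like, monocyte-like, although the hCD33m microglia-like level of 72.5 CPM exceeded the Control BAM-like level. The log2 difference of microglia-like over BAM-like cells was -1.66 ± 0.14 (SE, edgeR adjusted p = 6.17e-13) and over monocyte-like cells -3.96 ± 0.18 (edgeR adjusted p = 1.83e-21). Klf4 had 110.1, 32.1 and 43.3 CPM in BAM-like cells of hCD33m, hCD33M and Control and 189.7, 246 and 194 CPM in monocyte-like cells. Its log2 difference was -1.28 ± 0.18 over BAM-like (edgeR adjusted p = 5.77e-07) and -3.31 ± 0.26 over monocyte-like cells (edgeR adjusted p = 5.75e-14).

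Klf6 had 288, 250.8 and 262 CPM in BAM-like cells of hCD33m, hCD33M and Control, all above the microglia-like levels. It was lower in microglia-like cells by 0.68 on the log2 scale (SE 0.09, edgeR adjusted p = 3.80e-08). In monocyte-like cells it had 245, 172 and 194 CPM, overlapping the microglia-like range, and its log2 difference of -0.47 ± 0.15 (edgeR adjusted p = 0.00889) lost the call without the hCD33m library (adjusted p = 0.0809) or the Control library (0.0677). Klf7 was the only member higher in microglia-like than in monocyte-like cells. It had 4.99, 32.8 and 64.8 CPM in monocyte-like cells, from 1, 8 and 13 UMIs, and a log2 difference of 1.76 ± 0.28 (edgeR adjusted p = 2.39e-06). In BAM-like cells Klf7 had 125, 135 and 144 CPM, with a log2 difference of -0.03 ± 0.11 (edgeR adjusted p = 0.875).

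Klf13 was higher in monocyte-like than in microglia-like cells, and was not called between microglia-like and BAM-like cells. Monocyte-like and BAM-like cells were not compared by a test. It had 519, 454 and 458 CPM in monocyte-like cells of hCD33m, hCD33M and Control and 103, 95.4 and 95.5 CPM in BAM-like cells, and its log2 difference of microglia-like cells was -2.56 ± 0.12 over monocyte-like (edgeR adjusted p = 7.58e-21) and -0.09 ± 0.10 over BAM-like cells (edgeR adjusted p = 0.617). Klf10 was at 15.8, 14.5 and 10.8 CPM in BAM-like and 99.9, 28.7 and 54.8 CPM in monocyte-like cells, with log2 differences of -1.55 ± 0.32 (edgeR adjusted p = 0.000199) and -3.85 ± 0.40 (edgeR adjusted p = 1.31e-10). Klf9 had 3.96, 5.18 and 12.8 CPM in BAM-like cells, where its call (edgeR adjusted p = 0.00884) was lost without the Control library (adjusted p = 0.324). In monocyte-like cells it had 39.9, 20.5 and 39.9 CPM, with a log2 difference of -3.99 ± 0.55 (edgeR adjusted p = 1.29e-07). Klf3 did not pass in either comparison (edgeR adjusted p = 0.175 and 0.627), at 267, 262 and 248 CPM in BAM-like and 325, 180.2 and 229 CPM in monocyte-like cells.

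**Figure D5:**
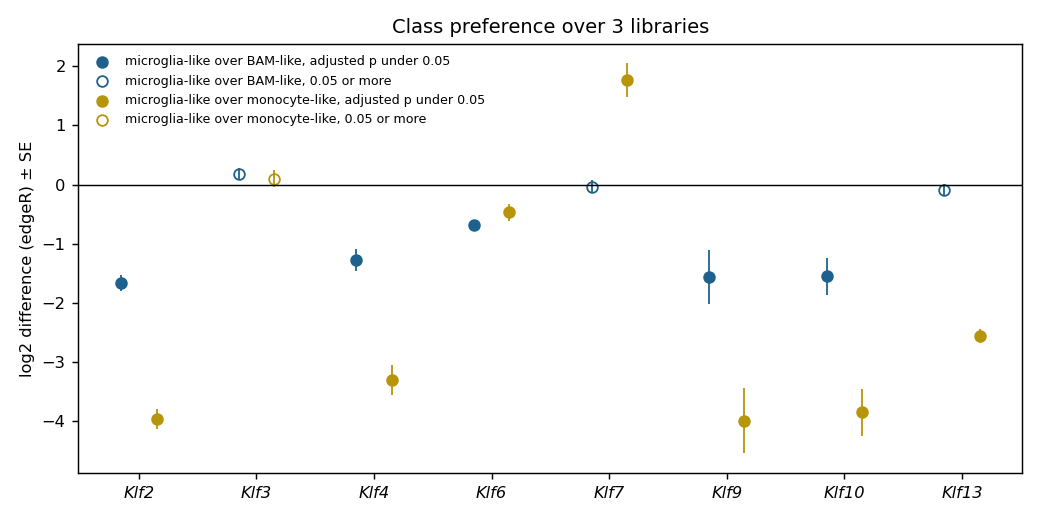
Log2 difference ± SE of the 8 factors for microglia-like over BAM-like and microglia-like over monocyte-like cells, over 3 libraries; filled points have an edgeR adjusted p under 0.05. Klf2 lies at -1.66 and -3.96, and Klf7 at 1.76 is the only filled point above 0.

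The higher Klf2 level of the hCD33m library over Control was also seen in BAM-like cells, and was not seen in monocyte-like cells. The hCD33M library was above Control in BAM-like cells too, whereas in microglia-like cells that log2 ratio of Klf2 was 0.14 (-0.01 to 0.29). In BAM-like cells the log2 ratio of hCD33m over Control was 1.83 (1.43 to 2.25) for Klf2 and 1.35 (0.86 to 1.86) for Klf4, and hCD33M over Control gave 1.20 (0.75 to 1.66) for Klf2 and -0.43 (-1.14 to 0.26) for Klf4. These sums rested on few cells, since the 5 cells with the most Klf2 held 107 of 324 UMIs in hCD33m, 63 of 133 in hCD33M and 25 of 61 in Control. At 2000 UMIs Klf2 was seen in 29.2% (21.2 to 38.2), 21.8% (14.2 to 31.1) and 14.7% (7.56 to 24.7) of BAM-like cells. The intervals of every pair of libraries overlapped, those of hCD33m and Control included. In monocyte-like cells, which were fewer, the log2 ratio of hCD33m over Control was 0.05 (-0.32 to 0.43) for Klf2 and -0.03 (-0.72 to 0.65) for Klf4. Differences between the classes in this ratio were not tested.

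Counts of surrounding genes are read beside all 9123 genes tested. Of these, 8.8% were higher and 13.4% lower in microglia-like than in BAM-like cells, and 20.7% higher and 21.9% lower than in monocyte-like cells. Wwp1, the ligase that marks Klf2 for degradation, was lower in microglia-like than in BAM-like cells (log2 difference -2.49, edgeR adjusted p = 3.45e-24). Of 14 cofactors and ligases tested, 3 were lower and 0 higher than in BAM-like cells, near the share of all genes, and 2 were lower and 2 higher than in monocyte-like cells. Mef2c and Mef2a were higher in microglia-like than in monocyte-like cells (log2 differences 1.64 and 1.05, edgeR adjusted p = 1.97e-14 and 1.15e-09), while Map3k3, a kinase upstream of MEK5, was lower (-0.72, adjusted p = 0.0179), of 7 tested. Of 14 Klf2 and Klf4 targets tested, 5 were lower and 1 higher in microglia-like than in BAM-like cells, and 9 lower and 3 higher than in monocyte-like cells. Cxcr4, Cd36 and Thbd were lower in both comparisons. Each was near 0 in microglia-like cells, so the size of the difference depends on the prior count of the fit. Klf12 was higher in microglia-like than in BAM-like cells (0.63, edgeR adjusted p = 0.0412) and than in monocyte-like cells (3.59, edgeR adjusted p = 0.00146), the opposite of most members, and was the only one of 5 further Klf and Sp genes tested that was higher. It had 1, 0 and 0 UMIs in monocyte-like cells of hCD33m, hCD33M and Control, so the size of that difference also depends on the prior count. Of 9 TGF-beta genes tested, 5 were higher and 0 lower than in BAM-like cells and 6 higher and 1 lower than in monocyte-like cells, with Smad7, an inhibitor of that pathway, higher by 0.72 and 2.27 on the log2 scale. The early response list was split, with 5 of 21 genes higher and 5 lower against BAM-like cells and 9 higher and 10 lower against monocyte-like cells, as were the glucocorticoid list of 10 genes (1 and 4, then 4 and 5) and the heat shock list of 6 genes (0 and 0, then 1 and 2).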

How the data were processed

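Brain microglia of 3 genotypes were profiled with the 10x Chromium 3' assay. The authors aligned reads to mm10 with Cell Ranger and deposited raw counts, the UMIs per gene and cell, of barcodes with over 200 genes and of genes in at least 3 cells. No gene annotation is stated for the files in the sources used here. The study's later filter was applied (200 to 8000 genes, at most 10% mitochondrial UMIs, at least 200 UMIs) and left slightly more cells in each library than the study's methods give. The scrublet threshold marked 0 cells in every library, so no doublets were removed.

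Without Klf, Sp, early response and sex-linked genes, 2000 variable genes gave 15 components and a graph of 20 neighbours, which was cut by the Leiden method in its igraph form at resolution 0.5 (scanpy 1.11.5, Python 3.11.15, numpy 2.4.6, scipy 1.17.1). Classes other than microglia needed 3 or more markers among a cluster's top 10 genes by fold. UMIs were summed per library and class. Ratios carry exact 95% intervals for counting error, and genes that reached 5 CPM in either library were counted at 1.5-fold. Classes were compared with edgeR 4.0.16 (quasi-likelihood, TMM, R 4.3.3, Benjamini-Hochberg adjusted p under 0.05), a script tested on simulated data. DESeq2 1.42.0, other scalings, filters, resolutions and thinning depths were alternatives.

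The members and the lists (further Klf and Sp genes, MEK5-ERK5-MEF2, cofactors and ligases, Klf2 and Klf4 targets, early response, glucocorticoid-induced, TGF-beta-induced, heat shock, cell markers) were chosen with earlier results of these data known. Named genes were all members, up to 4 genes per list by size of ratio (at least 20 CPM) or smallest adjusted p, and the 3 genes most like each member. Genes named outside that rule were chosen after their values were seen. Likeness used log2(CPM + 1) over sums of at least 30 cells and genes with a mean of at least 20 CPM.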

Additional observations from a re-analysis of the deposited data

Results flagged for a closer look

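Klf3 in the shallow clusters that were not named was higher in hCD33M, with 368 CPM there and 295 CPM in Control, and a log2 ratio of hCD33M over Control of 0.32 (0.01 to 0.63, counting error only). It was singled out because these cells are outside the comparisons of the report and the interval lay above 0. All 8 members were screened in the ratios of both transgenic libraries over Control, for intervals above 0 only. It alone passed, and no allowance was made for the number of ratios read. In microglia-like cells the same ratio was 0.04 (-0.01 to 0.08). The part of shallow depth in this difference was not tested.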

How the results depend on the processing

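Klf2 and Klf4 stayed at least 1.5-fold higher in hCD33m than in both other libraries under every alternative run, and at 2-fold the members past the limit for hCD33m over hCD33M were 1 in place of 2. The scalings moved the median log2 ratio of all genes by under 0.03. Fitting the classes without the library as a block kept 5 and 7 members called, with weaker values. Against BAM-like cells the SE of Klf2 was then 0.32 (edgeR adjusted p = 0.00135), in place of 0.14. Klf4 there had an SE of 0.43 (edgeR adjusted p = 0.0442), in place of 0.18. DESeq2 called 1246 genes against BAM-like cells, where edgeR called 2028. With classes drawn from marker UMIs, 1047 genes were called against BAM-like and 1811 against monocyte-like cells (3887 in the main comparison), of only 2674 tested. Klf6 against monocyte-like cells also lost its call with totals only (adjusted p = 0.378) and without the filter on low counts (0.0741), Klf3 gained one with totals only (0.0130 against BAM-like, 0.0155 against monocyte-like) and Klf13 against BAM-like cells with classes drawn from marker UMIs (log2 difference -0.94, adjusted p = 0.0124). Those classes also called Klf3 against monocyte-like cells (0.46, adjusted p = 0.0465), gave -3.33 for Klf2 and -2.68 for Klf4 against BAM-like cells (-1.66 and -1.28 in the main comparison), and left Klf9 and Klf10 untested. Of 30 co-detection ratios, 8 had an interval above 1 at 2000 UMIs, 18 without thinning and 23 with at least 2 UMIs required. Klf7 with Fos in Control changed direction, 0.720 at 2000 UMIs against 1.01 at 1000 UMIs, 1.05 without thinning and 1.27 with at least 2 UMIs. In cells with no UMI of Fos, Fosb or Jun, the genes past 1.5-fold for hCD33m over Control numbered 320 higher and 354 lower, against 107 and 129 in all microglia-like cells, and 211 and 218 after thinning. The cause was not tested in these cases. Leaving out barcodes shared between libraries was added after seeing the data. The depth limits Klf9, Klf10 and all monocyte-like and BAM-like values, and 1 library per genotype allows no test between genotypes.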

Other observations

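In the same shallow clusters, the counts of Klf2 and Klf4 were small. Klf2 had 22, 3 and 9 UMIs in hCD33m, hCD33M and Control, and its log2 ratio was 0.64 (-0.54 to 1.94) for hCD33m over Control and 2.14 (0.40 to 4.52) for hCD33m over hCD33M. Klf4 had 21, 3 and 8 UMIs, with log2 ratios of 0.74 (-0.49 to 2.12) and 2.07 (0.32 to 4.46). The order of the libraries was the one seen in microglia-like cells for Klf4, and the intervals over Control took in 0 for both genes.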
